A study of Mus musculus with 3 samples.

Results

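The genes described here encode ligands, receptors, Smads and feedback inhibitors of the transforming growth factor β (TGFβ) superfamily. They were chosen as a list of 38 named genes, all of which were measured, out of 19938 genes on the array. TGFβ is a secreted protein kept latent in the matrix until it is released. Active ligand brings type II and type I receptor kinases together, the type I receptor phosphorylates receptor Smads, and these join Smad4 and enter the nucleus. Among the genes that Smads switch on are inhibitors of the same pathway, and in CD4 T cells TGFβ is known for guiding regulatory and Th17 differentiation and for restraining effector genes.

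RNA came from mouse CD4 T cells, with 1 array for each of 3 cultures. The cells were naive splenic CD4+CD25-CD62LhighCD44low T cells of the strain B6.Cg-Tg(TcraTcrb)425Cbn/J, which carries the OT-II receptor for an ovalbumin peptide, and the labels give no animal age. Every culture, controls included, was activated with that peptide on T-cell-depleted splenic antigen-presenting cells from Il23a-/- mice. The Th0 culture received no added cytokine, the Th22 culture received IL-6, and the Th17 culture received IL-6 and TGFβ. Cells were purified by magnetic sorting after 60 hours. TGFβ was thus an added agent in the Th17 culture, and TGFβ in the serum or made by cells was not measured. Differences between groups cannot be told apart from differences between single cultures, and no p-value is given.

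Values are log2 expression less each probe's median over the 3 arrays, so that the middle array of a gene with 1 probe stands at 0. Of the 38 genes 37 had 1 probe. Base 2 is assumed, and every fold rests on that. This centring removed the expression levels, so genes cannot be ranked by abundance and a gene that is not detected cannot be recognised. Over 999 genes with several probes, the probes of a gene varied around its mean with an SD of 0.12 log2 in both comparisons that involve Th17 and 0.10 log2 when Th22 was set against Th0. This is the only repeat measurement, and it leaves out the spread between cultures. Over all probes the SD was 0.28 log2 on the Th17 array, 0.17 on Th0 and 0.12 on Th22. As for the cell type, none of 10 measured pan T cell markers differed by 2-fold in any comparison, nor did any of 19 myeloid and dendritic markers, 6 platelet and erythroid markers or 10 stromal and endothelial markers. Of all genes 2.61% passed 2-fold in Th17 against Th22, 0.808% in Th22 against Th0 and 3.03% in Th17 against Th0. Counts of 0 in lists this short therefore say little about the cell types present. Of the myeloid and dendritic markers 11 were equal on all 3 arrays, as were all 6 platelet and erythroid and 4 stromal and endothelial markers. Whether those were detected is unknown. Of 11 B cell markers 8 were equal on all 3 arrays, and Ebf1 alone passed 2-fold, at 0 in Th0, 1.62 in Th22 and -1.05 in Th17. Among 8 markers of CD8 T and NK cells, Gzma and Cd8b1 passed it, 4.85-fold and 2.20-fold lower in Th17 than in Th22 (2.52-fold and 1.61-fold after quantile normalization, which forces equal spread on the arrays). They were the only 2 of the 8 that were lower by any amount, while 3 were higher and 3 showed no difference. In a bulk sample fewer cells of a type and less RNA per cell cannot be told apart.

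Most of the genes that varied were highest in the Th17 culture. Of the 38 genes 6 were exactly equal on all 3 arrays, namely Ltbp1, Bmpr1b, Acvr2b, Tgfbr3, Smad9 and Zfyve9. That is 15.8%, beside 37.7% of all genes. Equality alone is not read as absence. Of 25 probes annotated to the abundant Gapdh transcript, alone or together with other symbols, 15 were equal too. Whether the 6 genes were detected is unknown. Of the other 32 genes 25 were highest on the Th17 array, or 78.1%, beside 29.4% of all genes not equal on the 3 arrays. Another 5 were highest on the Th22 array (15.6%, beside 22.1%) and 2 on the Th0 array (6.25%, beside 29.6%). The Th0 array was the lowest for 16 of the 32, or 50%, beside 22.7% of all such genes. The list was chosen with earlier results of these arrays known, so these shares and the counts below give no independent evidence.

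**Figure D1:**
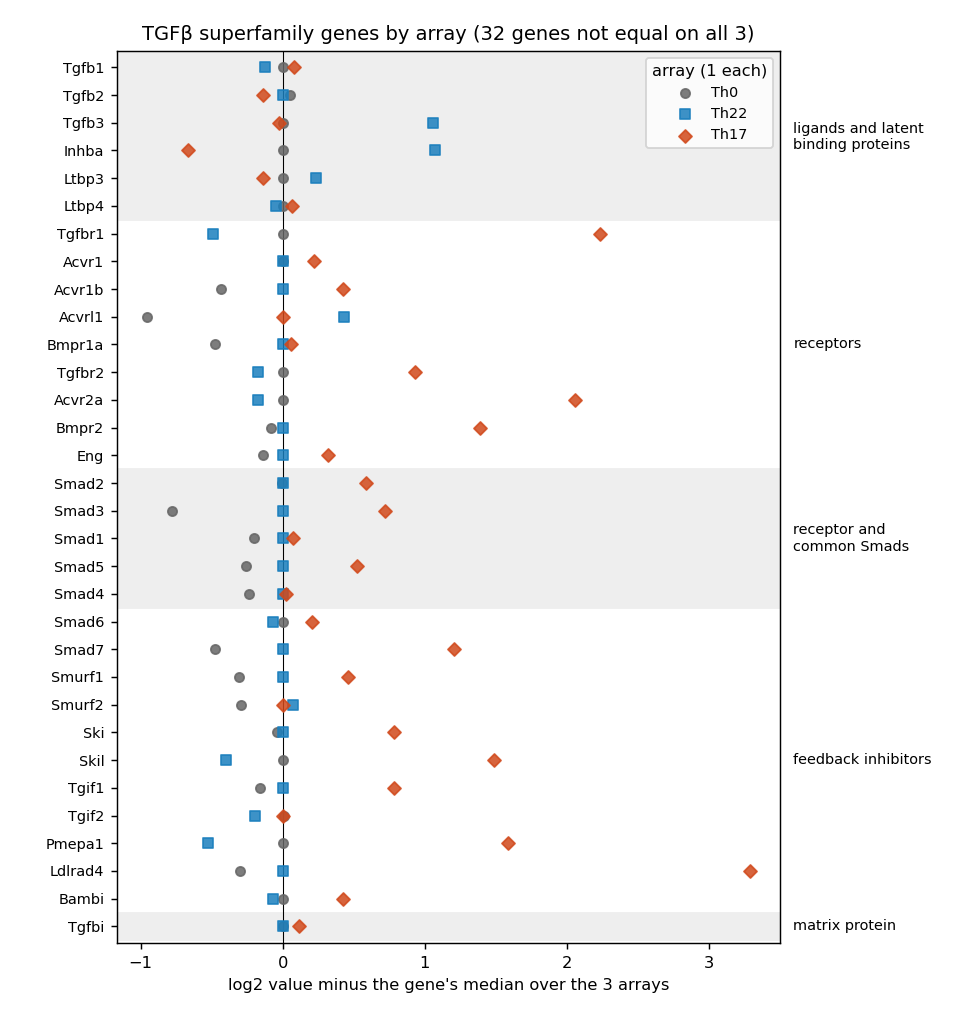
Centred log2 value (horizontal axis) of each of the 32 genes that differed between arrays, with 1 point per array and genes ordered by role. Th17 points lie to the right for 25 genes, most of all for Ldlrad4 at 3.29, while the Th22 points of Tgfb3 and Inhba stand apart at 1.06 and 1.07.

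Th17 and Th22 differ in the TGFβ added on top of IL-6. Of the 38 genes 8 were 2-fold or more higher in Th17, where 1.1% of all genes were, and 2 were 2-fold or more lower, where 1.5% of all genes were. The 8 were 4 receptors and 4 feedback inhibitors, and the 2 lower genes were both ligands. The median difference over the 38 was 0.21 log2, beside 0 over all genes. By any amount 26 of the 38 were higher in Th17, beside 29.2% of all genes, 6 were lower and 6 showed no difference. Of all 19938 genes 5237 were lower and 8874 showed no difference. In Th17 against Th0, 8 of the 38 were at least 2-fold higher (1.47% of all genes) and 0 lower (1.56% of all genes), with a median of 0.36 log2. In Th22 against Th0, 3 were at least 2-fold higher (0.547% of all genes) and 0 lower (0.261% of all genes), with a median of 0. No tool was run behind these counts of 0, since 1 array per group allows no test. The 3 comparisons share arrays, so they are given side by side and not set against each other.

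Of the ligand genes, Tgfb1 and Tgfb2 differed little between the arrays, while Tgfb3 and Inhba were highest in Th22. Tgfb1, the main TGFβ gene of lymphocytes, stood at 0 in Th0, -0.12 in Th22 and 0.08 in Th17, and Tgfb2 at 0.05, 0 and -0.14. Their largest difference was 1.15-fold, that of Tgfb1 between Th17 and Th22. Tgfb3 stood at 0 in Th0, 1.06 in Th22 and -0.03 in Th17. Th22 alone was high, 2.08-fold above Th0 and 2.12-fold above Th17, with Th0 and Th17 nearly equal. Inhba encodes the subunit that pairs into activin A, a ligand of the activin receptors. Its values were 0 in Th0, 1.07 in Th22 and -0.67 in Th17. Th22 was again the high array, 2.10-fold above Th0 and 3.33-fold above Th17, and Th17 lay 1.59-fold below Th0. Latent binding proteins tether inactive TGFβ to matrix, and neither of the measured genes that varied reached 2-fold. Ltbp3 was 0, 0.24 and -0.14 and Ltbp4 0, -0.05 and 0.06 in Th0, Th22 and Th17. Of the 11 B cell markers 8 were equal on all 3 arrays, and Ebf1 alone passed 2-fold. Ebf1 was high on the same array as Tgfb3 and Inhba, and its part in these values was not tested. Over all 7 ligand and binding protein genes, 2 were 2-fold or more below Th22 in Th17 and 0 above, while 4 were lower and 2 higher by any amount. In Th22 against Th0, Tgfb3 and Inhba were the 2 past 2-fold.

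Tgfbr1, Tgfbr2 and Acvr2a, receptor genes of the TGFβ and activin branch, were highest in Th17. Tgfbr1 encodes the type I TGFβ receptor kinase. It stood at 0 in Th0, -0.49 in Th22 and 2.23 in Th17, which is 6.61-fold above Th22 and 4.70-fold above Th0. It ranked 24 among all genes by the size of the increase over Th22. Tgfbr2, the type II receptor that binds TGFβ first, stood at 0, -0.17 and 0.93. The Th17 array was high by 2.15-fold against Th22 and 1.90-fold against Th0. Acvr2a encodes a type II receptor for activins, and stood at 0 in Th0, -0.17 in Th22 and 2.05 in Th17. Th17 exceeded Th22 by 4.68-fold and Th0 by 4.15-fold. Acvr1b, the type I partner for activin, stayed under 2-fold at -0.43, 0 and 0.42, a 1.81-fold difference between Th17 and Th0.

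Receptors of the bone morphogenetic protein (BMP) branch were uneven. Bmpr2, the type II BMP receptor, was -0.08 in Th0, 0 in Th22 and 1.39 in Th17. Th17 was 2.62-fold above Th22 and 2.77-fold above Th0, which lay close together. Acvrl1 encodes the type I receptor ALK1, best known from endothelium, and was -0.95 in Th0, 0.43 in Th22 and 0 in Th17. Here Th0 was the low array, 2.62-fold below Th22 and 1.94-fold below Th17. The endothelial co-receptor gene Eng, whose protein works with ALK1, was -0.14, 0 and 0.32 in the same order. Bmpr1a, a type I BMP receptor gene, was likewise lowest in Th0, at -0.48, with 0 in Th22 and 0.06 in Th17. Acvr1, another type I receptor gene, was 0, 0 and 0.22. Over the 12 receptor and co-receptor genes, 4 were 2-fold or more above Th22 in Th17 and 0 below, with a median of 0.27 log2, and by any amount 8 were higher and 1 lower. Against Th0, 3 passed 2-fold in Th17 and all 3 were higher, and only Acvrl1 passed it in Th22.

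RefSeq promoter windows on GRCm38.p6 were matched by symbol for 28 of the 38 genes, with 40 transcript starts in all. No window was found for Ldlrad4, Pmepa1, Skil and Smad7, the 4 feedback inhibitors past 2-fold higher in Th17 than in Th22. Tgfb3, Tgfbr3, Acvrl1, Smad2, Smad4 and Bambi had none either. The 250 bases before each start are shown for the 4 receptor genes that were higher in Th17, because these genes were high on the same array, and for Inhba, which was high in Th22. Tgfbr1 has 2 annotated starts. Capitals mark matches to CAGAC on either strand (GTCTG), the short Smad-binding sequence, to GGCGCC, a GC-rich sequence that Smads can bind, to the palindrome GTCTAGAC, or to TTCNNNGAA, the STAT consensus. The motifs were searched separately, and none of the matches shown overlapped.
Tgfbr1 first start, chr4:47352972-47353221, plus strand: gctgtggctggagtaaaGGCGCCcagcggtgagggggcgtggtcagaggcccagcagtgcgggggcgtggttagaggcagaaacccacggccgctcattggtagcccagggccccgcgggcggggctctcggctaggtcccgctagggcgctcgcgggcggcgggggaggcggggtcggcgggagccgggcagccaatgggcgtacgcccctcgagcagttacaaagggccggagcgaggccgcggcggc
Tgfbr1 second start, chr4:47385966-47386215, plus strand: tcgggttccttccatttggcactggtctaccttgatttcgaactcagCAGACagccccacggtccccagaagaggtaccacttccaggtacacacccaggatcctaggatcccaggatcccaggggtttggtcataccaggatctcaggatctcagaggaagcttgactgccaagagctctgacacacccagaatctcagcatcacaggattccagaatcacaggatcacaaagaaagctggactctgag
Tgfbr2, chr9:116175364-116175613, minus strand: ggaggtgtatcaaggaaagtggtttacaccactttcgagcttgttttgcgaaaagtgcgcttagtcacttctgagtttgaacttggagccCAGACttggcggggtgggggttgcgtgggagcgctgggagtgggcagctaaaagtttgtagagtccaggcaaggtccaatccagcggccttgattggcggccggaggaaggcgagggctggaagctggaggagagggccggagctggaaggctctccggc
Acvr2a, chr2:48813859-48814108, plus strand: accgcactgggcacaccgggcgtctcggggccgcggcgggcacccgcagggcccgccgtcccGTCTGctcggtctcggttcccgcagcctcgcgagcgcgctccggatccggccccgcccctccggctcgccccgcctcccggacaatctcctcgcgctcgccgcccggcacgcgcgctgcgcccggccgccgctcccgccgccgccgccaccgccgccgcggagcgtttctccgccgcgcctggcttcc
Bmpr2, chr1:59764029-59764278, plus strand: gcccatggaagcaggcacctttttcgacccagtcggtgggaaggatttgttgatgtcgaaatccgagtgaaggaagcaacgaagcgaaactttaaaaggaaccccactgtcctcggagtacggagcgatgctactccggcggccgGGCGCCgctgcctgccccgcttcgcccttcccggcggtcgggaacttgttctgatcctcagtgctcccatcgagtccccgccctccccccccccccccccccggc
Inhba, chr13:16011601-16011850, plus strand: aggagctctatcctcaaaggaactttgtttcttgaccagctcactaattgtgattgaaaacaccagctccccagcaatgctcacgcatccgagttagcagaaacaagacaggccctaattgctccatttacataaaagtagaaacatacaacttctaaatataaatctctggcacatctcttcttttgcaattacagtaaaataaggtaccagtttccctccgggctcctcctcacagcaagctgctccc

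The 5 receptor windows held 1 match each. CAGAC or its complement began 203 bases before the second Tgfbr1 start, 160 before that of Tgfbr2 and 188 before that of Acvr2a, counting the base next to the start as 1. GGCGCC began 233 bases before the first Tgfbr1 start and 105 before that of Bmpr2. The Inhba window held 0 matches to any of the 4 motifs. CAGAC was present in 18 of the 40 windows (45%), and in 42.2% of the 32851 windows of all genes. GGCGCC was present in 10 of the 40 (25%), beside 9.59% of all windows, TTCNNNGAA in 1 (2.5%, beside 7.02%) and GTCTAGAC in 0 (beside 0.167%). Some windows belong to the same gene and overlap, and none belongs to Ldlrad4, Pmepa1, Skil or Smad7. The shares therefore do not describe these 4 inhibitor genes. The matches are of letters in a short window and describe no binding.

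No receptor Smad gene reached 2-fold between Th17 and Th22. Smad3, which carries the signal of the TGFβ and activin receptors, stood at -0.78 in Th0, 0 in Th22 and 0.72 in Th17. The 3 arrays were nearly evenly spaced, with Th17 2.82-fold above Th0 but 1.64-fold above Th22, and Th22 1.72-fold above Th0. Smad2, its partner in the same branch, was 0 in Th0 and in Th22 to 2 decimals and 0.59 in Th17, the one high array. Among the BMP receptor Smads, Smad5 was -0.26, 0 and 0.52, and Smad1 was -0.20, 0 and 0.07. Smad4, the partner shared by both branches, was -0.23 in Th0, 0 in Th22 and 0.02 in Th17, so Th17 and Th22 differed by less than the SD between probes. With Smad9 and Zfyve9, which anchors Smad2 and Smad3 at endosomes, 0 of the 7 genes in this class passed 2-fold in Th17 against Th22 or in Th22 against Th0, and Smad3 alone did in Th17 against Th0. None of the 5 that varied was lower in Th17 than in Th22.

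Ldlrad4, a feedback inhibitor gene, had the largest difference of the 38 genes in both comparisons with Th17 as deposited, but after quantile normalization Tgfbr1 exceeded it in Th17 against Th22 (7.30-fold, beside 5.72-fold for Ldlrad4). Ldlrad4 encodes a membrane protein that keeps receptor Smads from the receptor, and stood at -0.30 in Th0, 0 in Th22 and 3.29 in Th17. Th17 was 9.77-fold above Th22 and 12.1-fold above Th0, while Th22 and Th0 were 1.23-fold apart. Pmepa1 encodes a related membrane protein with the same action. It was 0 in Th0, -0.53 in Th22 and 1.58 in Th17, or 4.33-fold above Th22, with Th0 in between. Skil encodes SnoN, a corepressor that binds Smads in the nucleus and is itself a Smad target. Its values were 0, -0.40 and 1.49, with Th17 3.70-fold above Th22 and 2.80-fold above Th0. Smad7, the inhibitory Smad that recruits ubiquitin ligases to the type I receptor, was -0.48, 0 and 1.20, or 2.30-fold above Th22 and 3.20-fold above Th0. The Th17 array was high for all 4 genes, and the low array was Th22 for Pmepa1 and Skil and Th0 for Ldlrad4 and Smad7.

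The other inhibitor genes stayed under 2-fold in every comparison. Ski, the relative of Skil, was -0.04 in Th0, 0 in Th22 and 0.78 in Th17, and the corepressor gene Tgif1 was -0.16, 0 and 0.78, each 1.72-fold above Th22. Tgif2 differed from its relative Tgif1 in being nearly equal in Th0 and Th17, at 0.01 and 0, with -0.20 in Th22. Of the ubiquitin ligase genes that act with Smad7, Smurf1 was -0.31, 0 and 0.46. Smurf2, the only gene of the list with 2 probes, averaged -0.29, 0.07 and 0, and its probes put Th17 below Th22 by 0.14 log2 and above it by 0.01 log2. Bambi, a decoy receptor gene, was 0, -0.07 and 0.42, and Smad6, the inhibitor of the BMP branch, was 0, -0.07 and 0.20. Over all 11 inhibitors 4 were 2-fold or more above Th22 in Th17 and 0 below, with a median of 0.78 log2, and 10 were higher by some amount. Against Th0 the median was 0.82 log2 in Th17 and 0.04 log2 in Th22. Tgfbi, a matrix protein gene named for its induction by TGFβ, differed little, at 0 in Th0 and Th22 and 0.12 in Th17.

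**Figure D2:**
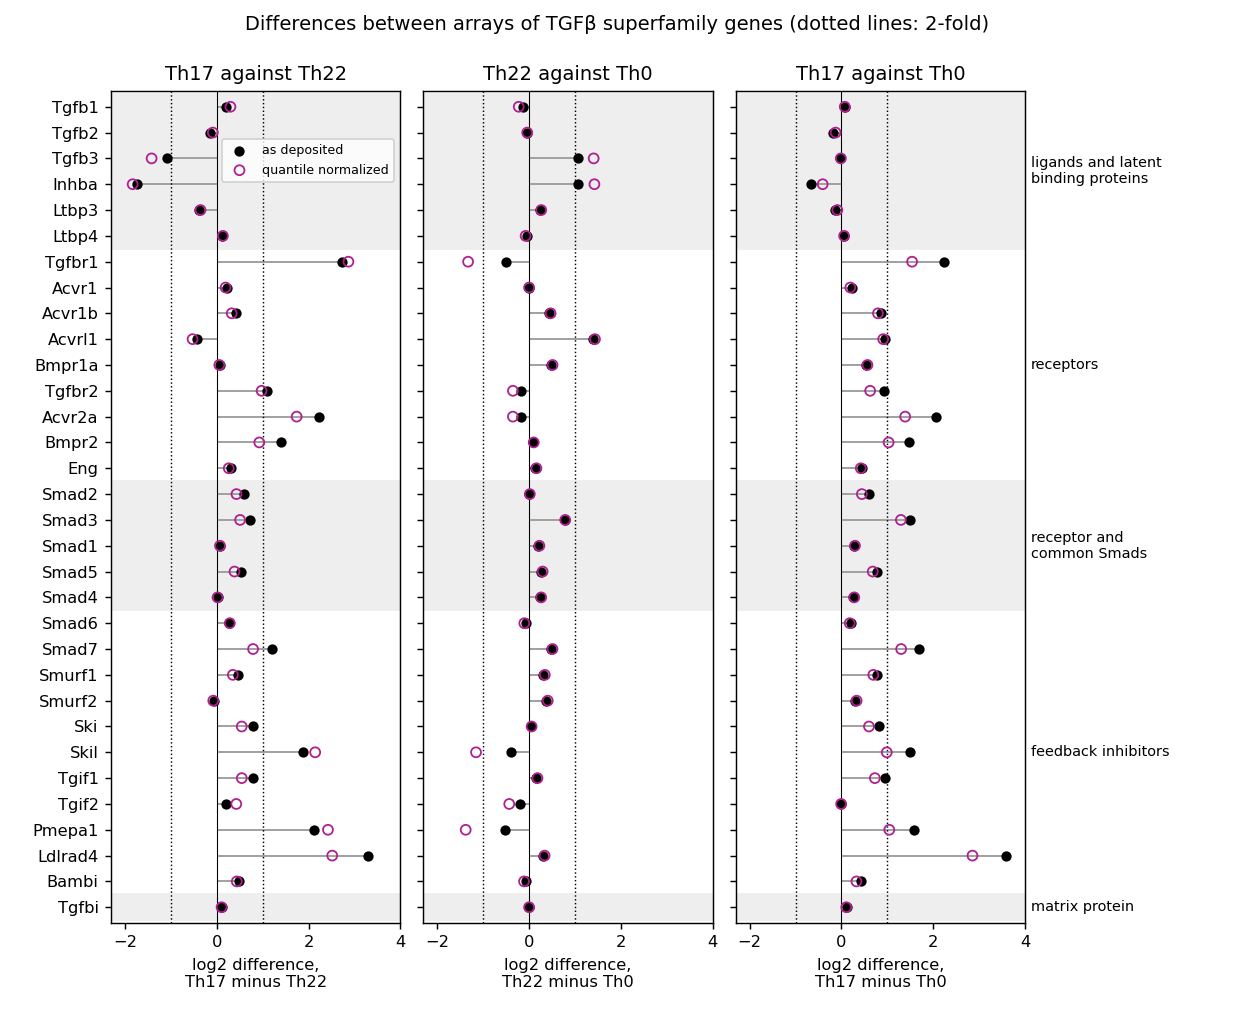
Log2 difference between arrays (horizontal axis, 1 panel per comparison) for the same 32 genes, as deposited (filled) and after quantile normalization (open), with dotted lines at 2-fold. Most receptors and inhibitors lie to the right in both panels with Th17, Acvrl1 and Smurf2 lie slightly to the left against Th22, Tgfb3 and Inhba lie to the left for Th17 against Th22, and quantile normalization moves Tgfbr1, Skil and Pmepa1 past 2-fold lower in Th22 against Th0.

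Some of these calls changed under quantile normalization. It was applied to values already centred on each probe's median, so it cannot show how the arrays compared before centring. After quantile normalization 5 of the 38 genes were 2-fold or more above Th22 in Th17 (0.988% of all genes) and 2 below (1.01%), while Tgfbr2 (1.97-fold), Bmpr2 (1.90-fold) and Smad7 (1.73-fold) came under the threshold. In Th22 against Th0 the split changed from 3 higher and 0 lower to 3 (0.752% of all genes) and 3 (0.792%), with Pmepa1 2.60-fold, Tgfbr1 2.51-fold and Skil 2.23-fold lower in Th22. In Th17 against Th0 Skil came to 1.98-fold, leaving 7 higher (1.01% of all genes) and 0 lower (1.09%). Ldlrad4 came to 5.72-fold above Th22, under the 7.30-fold of Tgfbr1, and to 7.23-fold above Th0, and Tgfbr1 and Acvr2a to 2.91-fold and 2.62-fold above Th0. None of the 38 genes past 2-fold as deposited turned direction. Over all genes the same procedure gave 150 higher and 158 lower in Th22 than in Th0, beside 109 and 52 as deposited.

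Other genes of the pathway were taken from lists of textbook members. The counts below stand beside 2.61% of all genes past 2-fold in Th17 against Th22, 0.808% in Th22 against Th0 and 3.03% in Th17 against Th0. Of 27 further superfamily ligands, none passed 2-fold between Th17 and Th22, and Inha, which encodes the inhibin alpha subunit, was 2.02-fold higher in Th17 than in Th0 and 1.96-fold higher in Th22. After quantile normalization the first difference was 1.96-fold, under the threshold. It stood at -0.97 in Th0, 0 in Th22 and 0.04 in Th17, so Th0 was the low array. Of 13 secreted antagonists of the ligands only Dcn, which encodes the TGFβ-binding matrix protein decorin, passed 2-fold. It was 0 in Th0, 1.47 in Th22 and -0.33 in Th17, with Th22 high as for Tgfb3 and Inhba. Of 15 genes that release latent TGFβ, Thbs1, which encodes the activator thrombospondin-1, was 2.80-fold and Furin, the protease gene for the TGFβ precursor, 2.42-fold higher in Th17 than in Th22, and both were 3.08-fold higher than in Th0. After quantile normalization they were 1.98-fold and 1.79-fold above Th22. The integrin gene Itgb3 differed the other way, 3.61-fold lower in Th17 than in Th22 (2.11-fold after quantile normalization) and 2.40-fold lower in Th22 than in Th0.

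None of 24 ubiquitin ligases, deubiquitinases, phosphatases and adaptors of the pathway passed 2-fold in any comparison, with differences between Th17 and Th22 from -0.12 to 0.55 log2. None of 21 genes of the non-Smad branches of the pathway passed it either, nor any of 6 further receptor genes. With so few of all genes past 2-fold (2.61%, 0.808% and 3.03% in the 3 comparisons), these counts of 0 do not set the lists apart from all genes. After quantile normalization 1 of the 21, the p38 kinase activator gene Map2k3, was 2.55-fold higher in Th17 than in Th22 and 2.19-fold lower in Th22 than in Th0, beside 1.57-fold and 1.31-fold as deposited. It was named after its values were seen. Of 20 Smad partners and cofactors, Runx1 was 2.40-fold higher in Th17 than in Th22 (1.83-fold after quantile normalization) and the stress-response factor gene Atf3 4.25-fold lower (2.26-fold). Against Th0, Atf3 was 11.0-fold lower in Th17.

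Genes that TGFβ is known to induce or restrain in T cells differed in both directions between Th17 and Th22. Of 23 measured genes known as TGFβ-induced, 8 were 2-fold or more above Th22 in Th17 and 1 below, with a median of 0.33 log2. Nt5e, which encodes CD73, was 24.3-fold, Il9 14.9-fold and Foxp3 12.6-fold higher, while Timp1 was 1.54-fold higher but 23.4-fold higher in Th22 than in Th0. For Il9 the Th22 array was the low one, at -3.40, beside 0 in Th0 and 0.50 in Th17. Its Th17 value exceeded that of Th0 by 1.42-fold. The lower gene, chosen after its value was seen, was Id3, an inhibitor of E proteins that answers BMP as well as TGFβ, at 0 in Th0, 0.97 in Th22 and -0.78 in Th17. Of 15 effector genes that TGFβ restrains, 9 were 2-fold or more below Th22 in Th17 and 0 above, with a median of -1.09 log2. By any amount 13 were lower and 1 higher, beside 5237 lower and 5827 higher of all 19938 genes. In Th22 against Th0, 7 of the 15 were 2-fold or more lower and 0 higher. Gata3, the Th2 factor gene, was 6.27-fold lower in Th17 than in Th22 and 3.50-fold lower in Th22 than in Th0, and Tbx21, the Th1 factor gene, 6.30-fold and 2.27-fold. Il13 was 2.13-fold and 7.68-fold lower in the same comparisons, and Gzmb 89.3-fold and 1.88-fold. After quantile normalization 7 of the induced genes were past 2-fold higher in Th17 than in Th22 and 6 of the restrained genes past 2-fold lower. The 7 were not all among the 8 as deposited. Klf10 (1.87-fold) and Runx1 (1.83-fold) came under 2-fold, while Gadd45b went from 1.66-fold to 3.92-fold. That scaling brought Nt5e to 12.7-fold, Il9 to 39.0-fold, Gata3 to 2.93-fold, Tbx21 to 2.95-fold, Gzmb to 30.1-fold and Il13 to 1.58-fold between these arrays, and Timp1 to 14.9-fold between Th22 and Th0. Runx1 is counted among the induced genes and among the Smad partners, and Gzma among the restrained genes and the CD8 T and NK cell markers. The lists are therefore not separate observations. Both the induced and the restrained list hold genes picked with earlier results of these arrays known, and so give no independent evidence of direction.

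**Figure D3:**
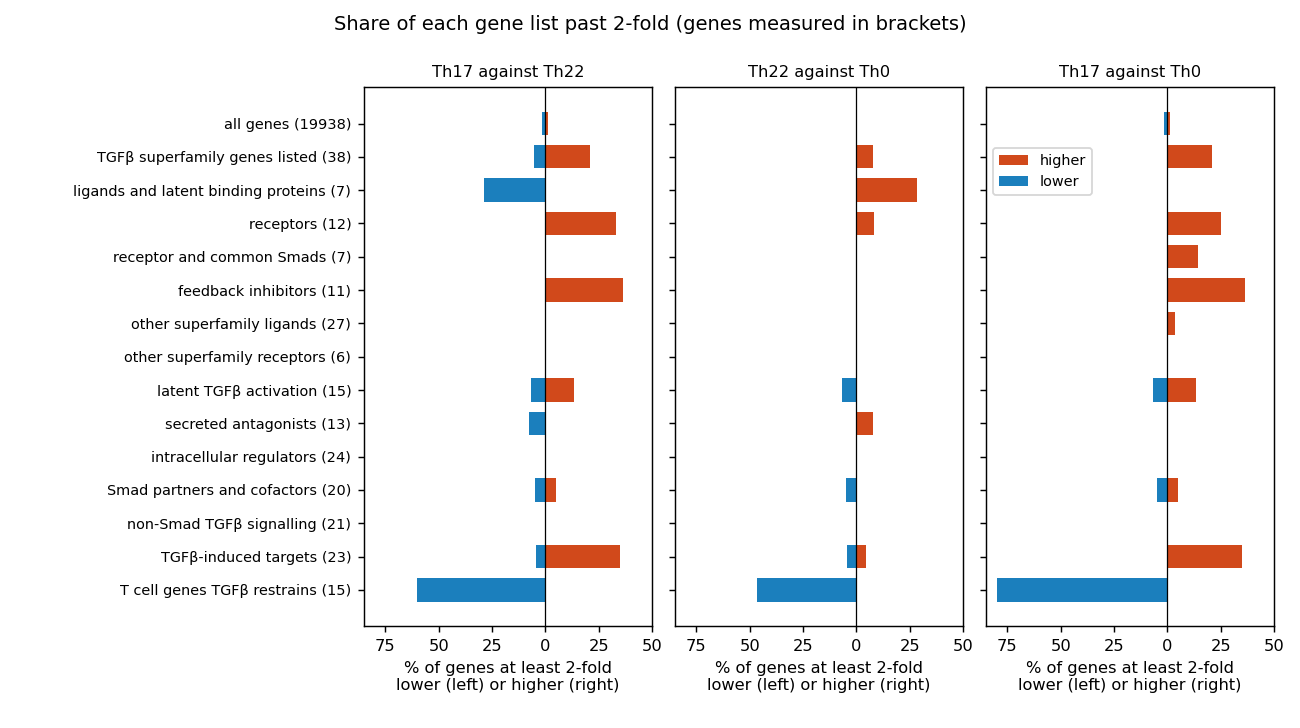
Percent of each gene list at least 2-fold lower (left) or higher (right), 1 panel per comparison, with the number of genes measured in brackets. Receptors and feedback inhibitors extend to the right in both comparisons with Th17 (4 of 12 and 4 of 11 against Th22), and ligands extend to the left against Th22 (2 of 7), beside 1.1% higher and 1.5% lower over all genes. Runx1 is counted both as a Smad partner and as a TGFβ-induced gene.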

How the data were processed

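Total RNA of 3 samples was hybridised to 1 biotin-labelled Affymetrix array each, per the labels, which also give each sample's T-helper subset. The authors deposited log2-scale values (base assumed) for 28853 probes, and the median over the 3 arrays is exactly 0 for each of the 28853. The sources used here give no probe summary, normalization, software or genome build.

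Gene symbols came from the platform annotation, brought up to date through Entrez identifiers and RefSeq's GRCm38.p6 gene table (21698 of 21789 probes with 1 symbol). Probes with several symbols (1621) or not listed (5443) were left out, and probes of a gene were averaged, giving 19938 genes. Genes past a 2-fold difference between arrays were counted. No test was possible with 1 array per group, so precision is limited by the number of arrays. Alternatives were quantile normalization of the centred values (limma 3.58.1), a 1.5-fold threshold and natural logs. Others were the probe with the largest range, probes with several symbols, and leaving out genes equal on all 3 arrays. The counting was tested on simulated data. Promoter motifs were searched in RefSeq windows of GRCm38.p6.

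The named genes are the listed members, and of each other list at most the 4 with the largest differences past 2-fold. Id3, Map2k3, Klf10, Gadd45b and the marker genes lie outside this rule and were named after their values were seen. The members and lists were chosen with earlier results of these data known.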

Additional observations from a re-analysis of the deposited data

How the results depend on the processing

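Genes of the list past the threshold and their medians were recomputed under each alternative, and no difference past 2-fold reversed. Quantile normalization gave 5 genes 2-fold or more higher in Th17 than in Th22 in place of 8. It gave 3 genes 2-fold or more lower in Th22 than in Th0 in place of 0. A 1.5-fold threshold gave 16 higher and 1 lower in Th17 than in Th0, in place of 8 and 0. Of all 19938 genes 595 were higher and 665 lower at that threshold. With natural logs 15 of the 38 were 2-fold or more higher in Th17 than in Th0, in place of 8. The median was 0.52 log2 in place of 0.36. The count over all genes with natural logs was not computed, so the 15 cannot be set beside a share of all genes. Leaving out the 6 genes equal on all 3 arrays, which by construction removes zeros, gave medians of 0.37 log2 (Th17 less Th22), 0.11 log2 (Th22 less Th0) and 0.57 log2 (Th17 less Th0). For these the cause is the construction of the alternative; for quantile normalization it was not tested. Keeping probes with several symbols changed none of these counts or medians beyond the limits used, because no such probe matched a listed gene. Choosing the probe with the largest range touches Smurf2 alone among the 38 genes. No paired analysis was possible because each group has 1 array. Leaving out a replicate was not possible for the same reason. Signal over background is unknown, since the centring removed the levels, and this limits what a value of 0 can show.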
